A study of Mus musculus with 12 samples.

Results

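The cytosolic ribosomal protein genes were described in RNA sequencing of mouse heart. Their members were all genes of the table whose symbol begins with Rpl or Rps followed by digits and lower-case letters, together with Rplp0, Rplp1 and Rplp2, and without the Rps6k kinases. This rule took 86 of 19246 genes, and 82 of the 86 had enough counts to be tested, among 14687 genes tested in all. Of the 86, 52 carry symbols of the large ribosomal subunit and 32 those of the small subunit. The other members are Rpl7l1 and Rps19bp1, whose symbols match the rule although their proteins are not among the named subunits of the ribosome. The members lie on 19 chromosomes, with 14 on chromosome 7.

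The 12 libraries fell into 4 groups of 3, all labelled as strain IRC and prepared from total RNA. Control animals were untreated. The AOS group had alginate oligosaccharides, which are short chains of alginate sugars, at a dose of 10 mg/kg over 5 weeks. The busulfan group had 40 mg/kg of busulfan, an alkylating chemotherapy drug, once, and the busulfan plus AOS group had that dose of busulfan followed by AOS at 10 mg/kg for 5 weeks. Neither age nor sex is given in the labels used here, and the labels do not say whether libraries of a group are separate animals, so p-values measure only the spread between these libraries. Libraries are named below by group and replicate number.

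Each ribosome carries a single copy of nearly every ribosomal protein, and the proteins are made in matched amounts. In mammals their mRNAs are short, abundant and long-lived, and most begin with a run of pyrimidines (the TOP motif) through which mTORC1 controls their translation together. A few members have a second gene copy that is used in particular tissues. Rpl3l, which replaces Rpl3 in heart and skeletal muscle, is the best known in the heart.

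Library totals lay between 9929772 and 13620815 estimated counts. The tissue label reads "Cells" while the protocol names the heart, and 10 cardiomyocyte genes summed to between 24271 FPKM (fragments scaled by transcript length and library size) in busulfan plus AOS 1 and 64675 FPKM in control 1. Some libraries stood apart. Control 1 and control 2 had the largest sums of FPKM over all genes (652385 and 616149, against 519683 to 567227 in the others). AOS 2 and busulfan plus AOS 1 had the lowest cardiomyocyte sums, the highest sums of 10 atrial genes (14365 and 14728 FPKM, against 42.5 to 8281) and the highest sums of 7 lung and airway genes (5069 and 1814 FPKM, against 0.91 to 281). The largest part of that last sum was Scgb1a1 (4155 and 1031 FPKM). Sftpc of the same list went the other way, at 0.95 and 0 FPKM there and 6.68 to 13.6 FPKM in controls. The main results of the members that rest on these libraries are given with and without them.

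The ribosomal protein genes were among the most abundant transcripts of these hearts. The median over the 82 tested members was 286 FPKM, against 7.05 FPKM over all tested genes, and 62 of the 82 were above 100 FPKM. The highest was Rpl23a, a large-subunit protein near the exit of the peptide tunnel, at a mean of 891 FPKM over the 12 libraries (range 787 to 1043). It was followed by Rpl41, which encodes the smallest ribosomal protein, at 826 FPKM, and by the small-subunit genes Rps24 at 724, Rps27 at 694 and Rps15 at 676 FPKM. The 3 stalk proteins, which recruit translation factors to the ribosome, had means of 498 FPKM for Rplp0, 421 for Rplp1 and 459 for Rplp2.

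Some members that are standard parts of the ribosome were listed at very low levels. Rpl21 had a mean of 0.906 FPKM, Rpl29 of 1.49, Rpl31 of 7.55 and Rpl10a of 8.34 FPKM. Rps18, a small-subunit protein, was not tested: it was listed at 0 in 6 of the 12 libraries and reached 0.69 FPKM at most. The other untested members were Rpl32l and Rpl37rt, with at most 0.17 and 1.45 FPKM, and Rpl39l, the copy of Rpl39 known from testis, with at most 0.24 FPKM. Reads of such genes can belong to other copies. Ribosomal protein genes have many processed pseudogenes, and 79.4% of the 50-base words of the Rps18 transcripts were found in transcripts of other genes of the GENCODE annotation of GRCm38. For Rpl21, words were shared with 82 other genes, 81 of them pseudogenes, and for Rpl29 with 88, of which 81 are pseudogenes. A low value of such a gene cannot be told apart from reads that the counting gave to another copy.

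How fractional counts arose is not given in the sources used here. For 25 members the deposited counts were whole numbers in every library (23 of them tested), and 59 tested members had a fractional count in at least 1 library, 33 of them in all 12. The members with whole counts shared a median of 19.3% of their words with other genes, and those with fractional counts 49.3%. Rpl3l, Rps19bp1 and Rpl39l were among those that shared none.

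The members varied less between libraries than other genes did. The median coefficient of variation of FPKM over the 12 libraries was 11.96% for the 82 members and 20.1% for all tested genes, a description without a test, since members are also more abundant. Rpl4 was the steadiest at 5.44% (350.4 to 414 FPKM), then Rpl23, a protein known to bind Mdm2, at 6.18%, and Rpl7a at 6.24%. The widest were Rpl10, which joins the large subunit late in its assembly, at 58.2%, Rps12 at 43.5%, Rps7 at 43.2%, Rpl3 at 35.9% and its muscle copy Rpl3l at 34.2%. Of these 5, the first 4 had fractional counts and shared 49.5% to 73.7% of their words with other genes, while Rpl3l had whole counts and shared none. Over the tested members as a whole the spread was alike, with a median of 12.1% for whole counts and 11.9% for fractional counts.

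**Figure D1:**
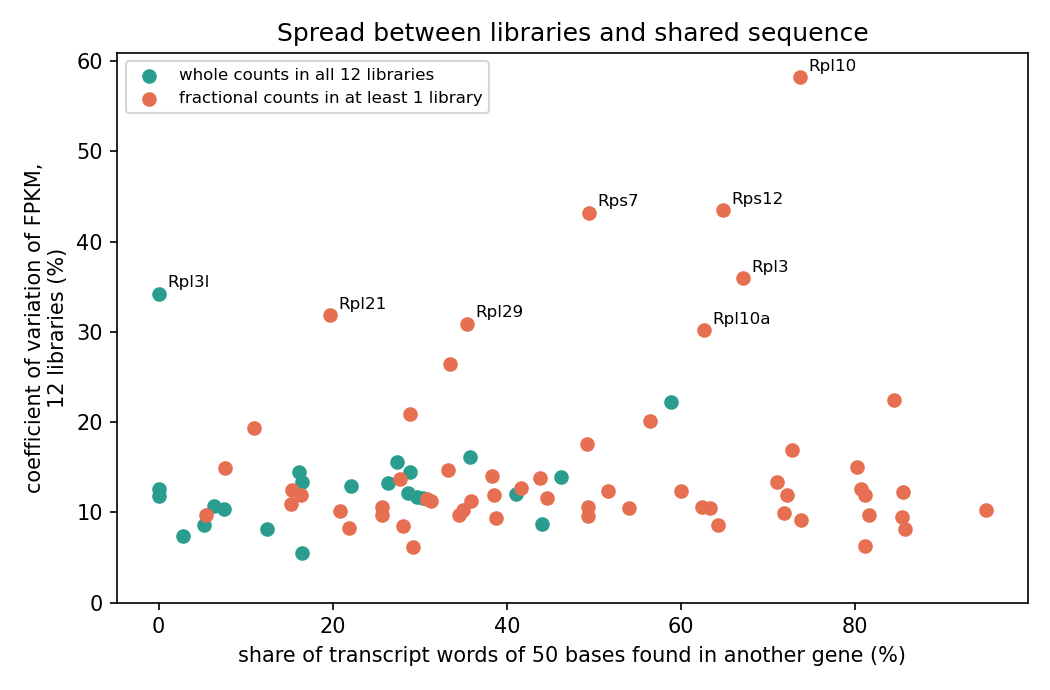
The horizontal axis gives the share of a member's transcript words of 50 bases found in another gene (%), and the vertical axis the coefficient of variation of its FPKM over the 12 libraries (%), with 1 point per tested member matched to the annotation. Colours separate members with whole counts in all 12 libraries from those with fractional counts, and Rpl10 (58.2%), Rps12, Rps7, Rpl3 and Rpl3l lie highest.

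In each group that was treated, most members had a lower mean than in control hearts, by about the same small amount, and no single member passed the test. Of the 82 members, 76 were lower in busulfan than in control hearts, at a median of -0.27 on the log2 scale, and 74 were lower in AOS hearts, also at a median of -0.27. In busulfan plus AOS hearts 76 were lower, with a median of -0.30. These comparisons share the control libraries and are not independent of each other. Over all tested genes the medians were 0.01, 0.03 and 0.04, with 48.9%, 46.3% and 47.0% of genes lower.

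No member was called in edgeR's quasi-likelihood test at a Benjamini-Hochberg adjusted p under 0.05 over all tested genes. The smallest adjusted p of a member was 0.437 for busulfan, 0.642 for AOS and 0.0736 for busulfan plus AOS against control, where the shares of all tested genes called were 0%, 0% and 0.306%. At an unadjusted p under 0.05, 34 members were lower with busulfan, against 3.92% of all tested genes, 25 with AOS, against 2.87%, and 44 with busulfan plus AOS, against 16%. DESeq2 called 17 members in busulfan plus AOS against control, all lower, where it called 7.74% of its genes lower. Without AOS 2, edgeR called 11 members there, all lower, against 8.69% of genes called lower.

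The difference from control rested on 2 of the 3 control libraries. The median deviation of the members from their own means, in log2 CPM (counts scaled to library size) with TMM scaling, was 0.36 in control 1 and 0.29 in control 2, but -0.05 in control 3. Among the 9 treated libraries it ran from -0.21 in busulfan plus AOS 1 to 0.07 in AOS 3, so that control 3 lay inside their range. Of the 82 tested members, 57 had their highest value on this scale (log2 CPM with TMM scaling) in control 1 and 16 in control 2. In busulfan plus AOS 1, 44 had their lowest. The members held 1.57% of all counts in control 1 and 1.64% in control 2, against 1.26% in control 3 and 1.26% to 1.46% in the treated libraries.

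Short transcripts outside the family showed a like profile over the libraries. The median deviation of 1078 other tested genes, with a length under 1000 bases implied by count and FPKM, was 0.37 in control 1, 0.28 in control 2 and 0.03 in control 3. It was lowest in busulfan plus AOS 1 at -0.29 and AOS 2 at -0.25. The median implied length of the tested members was 588 bases, against 2853 for all tested genes. The short genes had median log2 fold changes against control of -0.25 with busulfan, -0.26 with AOS and -0.37 with busulfan plus AOS, close to those of the members. Without control 1 and control 2 the members' medians were -0.02, 0.02 and -0.05, with the remaining control library assumed to vary like the other groups. With the short-gene deviation as a covariate they were -0.08, -0.04 and -0.01. What separates the short transcripts of control 1 and control 2 from the other libraries was not tested.

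**Figure D2:**
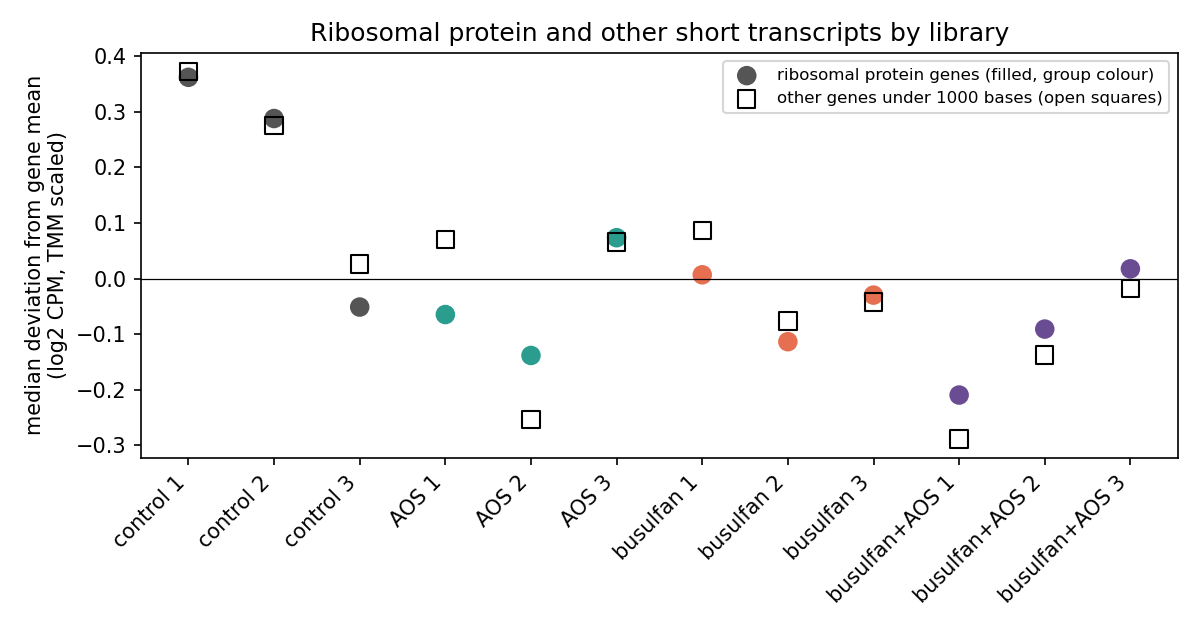
For each of the 12 libraries (horizontal axis), the median deviation from the gene's mean in log2 CPM with TMM scaling (vertical axis) is drawn for the ribosomal protein genes (filled circles, coloured by group) and for 1078 other genes under 1000 bases (open squares). Control 1 (0.36) and control 2 (0.29) are the highest for both sets, and busulfan plus AOS 1 (-0.21) is the lowest.

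The large and small subunits gave like values. In busulfan hearts 46 of 49 tested large-subunit members were lower than control, with a median of -0.26, and 29 of 31 small-subunit members, with a median of -0.31. In AOS hearts the medians were both -0.27 (42 and 30 members lower), and in busulfan plus AOS hearts they were -0.33 and -0.29 (43 and 31 lower). The 23 tested members with whole counts had medians of -0.27, -0.28 and -0.34.

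**Figure D3:**
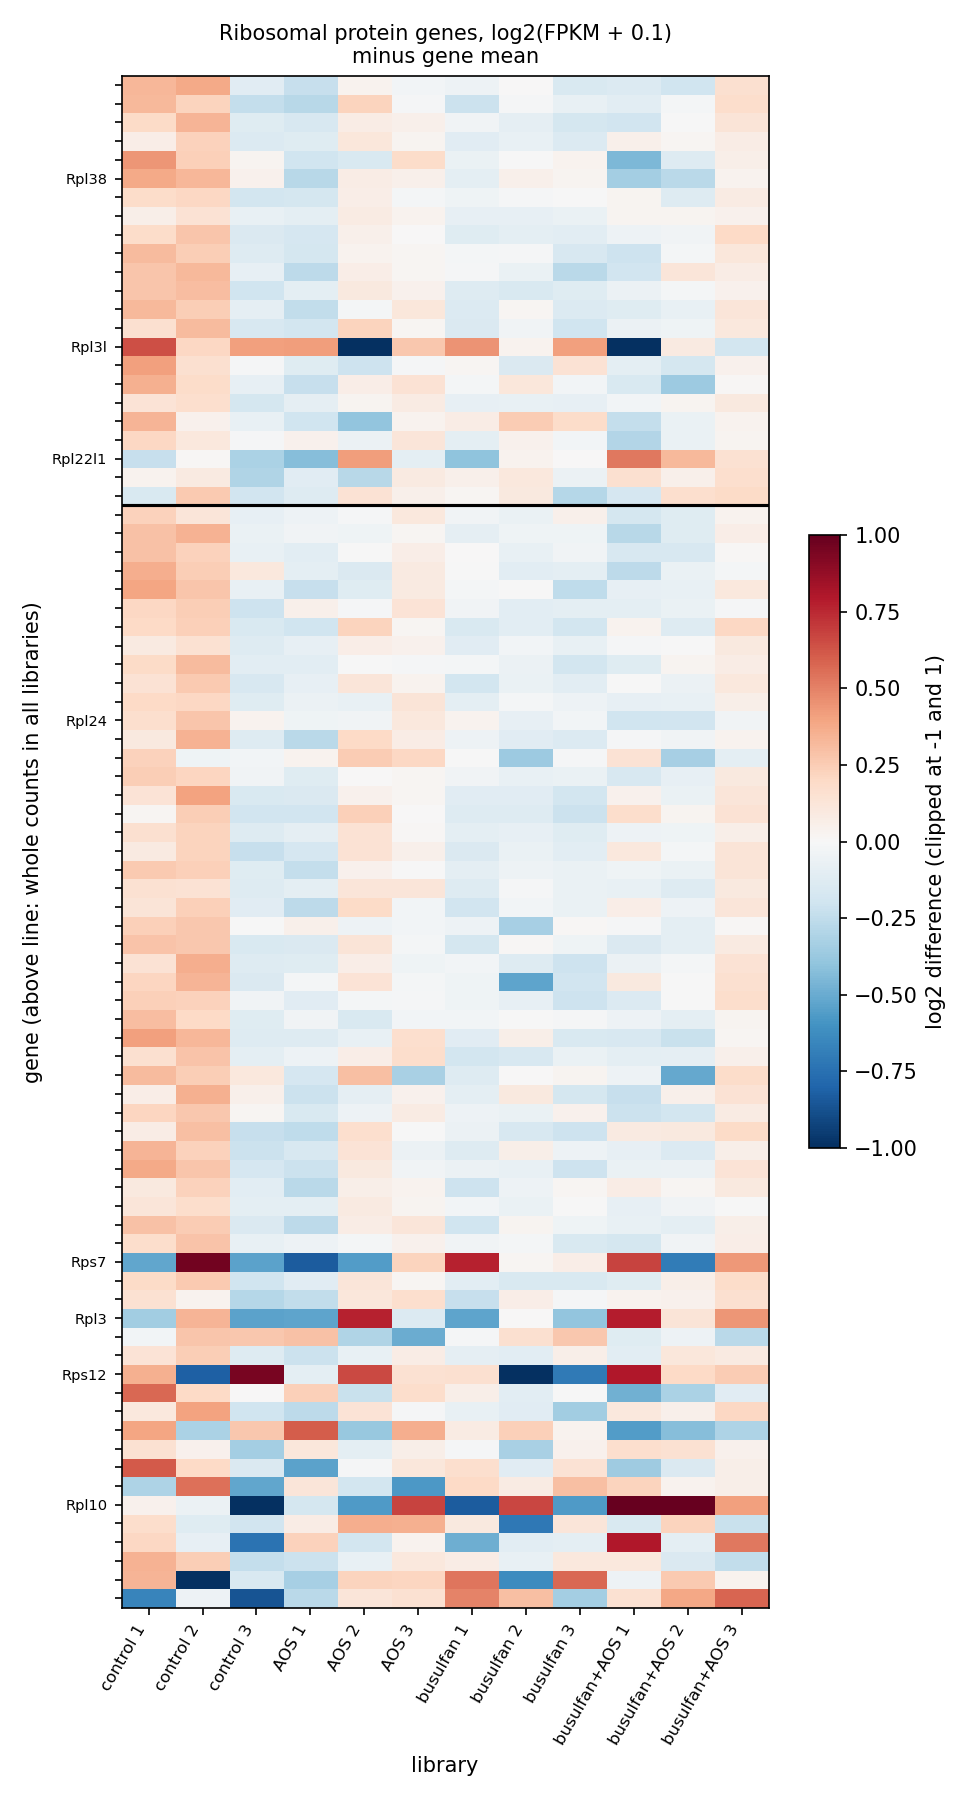
Each row is a tested ribosomal protein gene and each column a library, and the colour is log2(FPKM + 0.1) minus the gene's mean over the 12 libraries, clipped at -1 and 1. Rows above the line have whole counts in all 12 libraries. Symbols mark some of the genes described in the text. Most rows are reddest in control 1 and control 2, while Rpl3l is blue and Rpl3 and Rpl22l1 are red in AOS 2 and busulfan plus AOS 1.

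Rpl38, a large-subunit protein that in mouse embryos is needed for translation of a subset of Hox mRNAs, had the smallest p of any member (gene 67671, GRCm38 chromosome 11, 114667818 to 114672333). Its FPKM was 643, 622 and 508 in control 1 to 3, 407, 521 and 511 with AOS, 461, 513 and 505 with busulfan, and 390.0, 410.2 and 506 with busulfan plus AOS. Every busulfan plus AOS library lay below every control library, although the highest of them differed from control 3 by little. The log2 fold change of busulfan plus AOS against control was -0.60 ± 0.14 (SE) and the edgeR adjusted p was 0.0736. Over 25 alternative settings the adjusted p ran from 0.00460 in DESeq2 to 0.99956 with the short-gene covariate, and the log2 fold change from -0.73 to -0.31.

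Rpl24, whose mutation causes the Belly spot and tail phenotype in mice, was next, at 507, 546 and 463 FPKM in controls and 393, 395 and 440.4 with busulfan plus AOS. The groups did not overlap, and the log2 fold change was -0.48 ± 0.12 (edgeR adjusted p = 0.0787). Rpl24 shares 81.7% of its words with other genes, so its counts are uncertain. The counts of Rpl38 were whole, but it too shares words with other genes (27.4%). Both genes had their 2 highest values in control 1 and control 2, and without these libraries the values were -0.36 for Rpl38 and -0.34 for Rpl24. With the adipocyte covariate the value of Rpl24 was -0.31, and with the short-gene covariate it was -0.16.

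For busulfan against control the members with the smallest p were Rplp1 (log2 fold change -0.36 ± 0.13), Rpsa, a small-subunit protein also known as the laminin receptor (-0.46 ± 0.17), and Rps20 (-0.38 ± 0.14), each with an edgeR adjusted p of 0.437. Without control 1 and control 2 these values were -0.04 for Rplp1, -0.16 for Rpsa and -0.04 for Rps20. For AOS against control Rpl38 (-0.44 ± 0.14) and Rpl41 (-0.42 ± 0.15) were among those with the smallest p, each with an edgeR adjusted p of 0.642, and without control 1 and control 2 their values were -0.19 and -0.06. Of the 6 members with a higher mean than control in busulfan hearts, 5 had fractional counts, and the same held for 5 of the 6 in busulfan plus AOS hearts. Among all 82 tested members 59 had fractional counts, so these counts set the higher members little apart. Rpl21 had a log2 fold change of 0.63 ± 0.35 with busulfan and 0.73 ± 0.35 with busulfan plus AOS, and Rpl10 one of 1.05 ± 0.41 with busulfan plus AOS (edgeR adjusted p = 0.119). The FPKM of Rpl10 was 12.9, 12.02 and 2.85 in controls and 27.5, 32.1 and 16.7 with busulfan plus AOS, and 14 of the 15 other genes that share its words are pseudogenes.

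Members studied for roles beyond the ribosome did not pass the test. Rpl5 and Rpl11 bind Mdm2 and so link ribosome assembly to p53. Their log2 fold changes with busulfan were -0.26 ± 0.12 and -0.29 ± 0.12. Rpl11 was at 452, 444 and 347 FPKM in controls and at 353, 364 and 359 with busulfan, so that control 3 was below all 3 busulfan libraries. Rps6, the substrate of S6 kinases, had 0.11 ± 0.25 with busulfan, but 84.6% of its words are shared and its level was only 16.2 FPKM. Rps19, the gene most often mutated in Diamond-Blackfan anaemia, had -0.13 ± 0.14, and Rpl13a, often used as a reference transcript, -0.33 ± 0.13.

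The members differed little between busulfan with and without AOS. Against busulfan alone 50 of 82 were lower, at a median of -0.02 (log2), and none was called (0% of all genes called). At an unadjusted p under 0.05 a single member, Rps13, was lower, against 4.11% of genes. Rps13, a small-subunit protein, was at 44.4, 49.5 and 43.0 FPKM with busulfan and 28.4, 31.1 and 33.8 with busulfan plus AOS, without overlap (log2 fold change -0.65 ± 0.29, edgeR adjusted p = 0.469). The highest fold changes were those of Rps12 (0.83 ± 0.45), Rpl10 (0.83 ± 0.41) and Rpl3 (0.66 ± 0.28, edgeR adjusted p = 0.469). Without AOS 2 and busulfan plus AOS 1 the value of Rpl3 was 0.51 and that of Rps13 -0.56. With the mean log2 CPM of the atrial markers as a covariate they were 0.05 and -0.13, and with that of the adipocyte markers 0.33 and -0.41.

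Busulfan plus AOS against AOS alone was alike. Of the members 54 were lower, with a median of -0.04, and none was called, against 0.0204% of genes. Rps13 was again the only member lower at an unadjusted p under 0.05, against 3.94% of genes (-0.76 ± 0.29, edgeR adjusted p = 0.472), and its value was -0.39 with either the atrial or the adipocyte covariate. Both comparisons used the same 3 busulfan plus AOS libraries, and the AOS libraries held 63.6, 32.2 and 53.8 FPKM of Rps13, so that AOS 2 lay inside the range of the combined group. With library totals in place of TMM factors the members' medians in these comparisons turned to 0.09 and 0.03 (23 and 30 members lower), where that scaling moved the median of all genes by 0.11 and 0.06.

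Over both levels of the other treatment, 72 members were lower with busulfan (median -0.17) and 73 with AOS (median -0.14), each with 6 libraries against 6. None was called, against 0.157% of genes for busulfan and 0% for AOS. At an unadjusted p under 0.05, 11 were lower with busulfan, against 6.89% of genes, and 14 with AOS, against 7.69%. The smallest p for busulfan was that of Rps27a, which encodes ubiquitin fused to a ribosomal protein (-0.26 ± 0.09, edgeR adjusted p = 0.206). Rps2 and Rpl24 followed with -0.41 ± 0.15 and -0.24 ± 0.09. Without control 1 and control 2 the medians were -0.03 and -0.01, and the values with busulfan were -0.14 for Rps27a, -0.27 for Rps2 and -0.17 for Rpl24. With the adipocyte covariate Rps2 had -0.15 and Rpl24 -0.14. With library totals in place of TMM factors 69 members were lower with busulfan (median -0.09) and 48 with AOS (median -0.03), where the median of all genes moved by 0.07 and 0.12. With limma on log2(FPKM + 0.1) the counts were 69 (median -0.10) and 47 (median -0.04).

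The interaction asks whether AOS moved the members differently after busulfan than without it. Its log2 value was above 0 for 74 of 82 members, with a median of 0.21, against -0.03 over all tested genes. None was called, with 0% of all genes called, and a single member (Rps20, with a value of 0.47 ± 0.20) had an unadjusted p under 0.05, against 1.44% of genes. Without control 1 and control 2 the value of Rps20 was 0.13 and the median -0.05, so the sign also rested on these libraries.

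**Figure D4:**
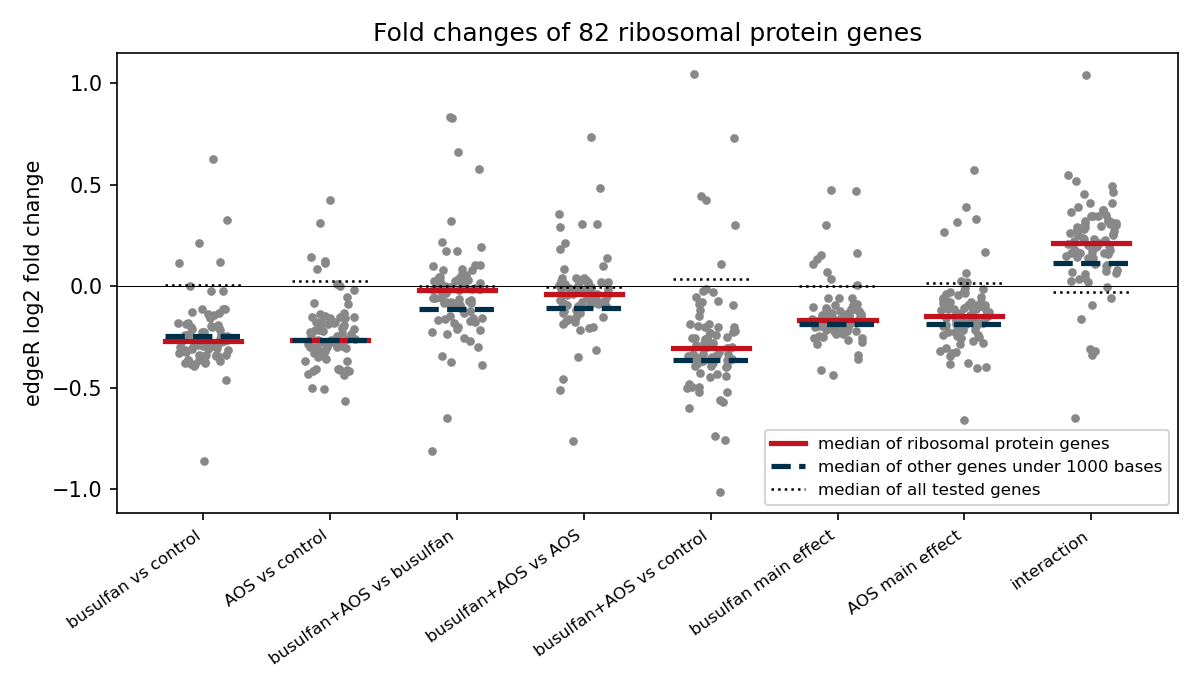
Each grey point is the edgeR log2 fold change (vertical axis) of a ribosomal protein gene in a comparison (horizontal axis). Lines mark the median of the 82 members, of other genes under 1000 bases, and of all tested genes. In the comparisons with control the medians of the members (-0.27, -0.27 and -0.30) and of the other short genes lie together below 0.

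Gene copies were compared with their common counterparts within each library, and none of 10 ratio tests passed. Rpl3l (gene 66211, chromosome 17, 24727826 to 24736143) was at 320, 236 and 272 FPKM in control 1 to 3, 273, 97.7 and 246 with AOS, 279, 209 and 272 with busulfan, and 63.8, 218 and 181 with busulfan plus AOS. Its common counterpart Rpl3 (gene 27367, chromosome 15, 80077781 to 80083406) was at 90.4, 145, 79.4, then 79.8, 196, 104, then 79.5, 115, 87.5, and then 199, 125 and 156 FPKM in the same order. The values mirrored each other: AOS 2 and busulfan plus AOS 1 had the lowest Rpl3l and the highest Rpl3.

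In these libraries Rpl3l made up 33.3% and 24.3% of the summed FPKM of both genes, and in the other 10 between 53.7% and 78.0%. The same libraries had the highest sums of the atrial and of the lung and airway genes and the lowest cardiomyocyte sums. The part of tissue makeup in the ratio was not tested. The log2 ratio of Rpl3l to Rpl3 was 0.23 ± 1.32 (SD, n = 6) with AOS and 1.43 ± 0.52 (n = 6) without. The difference of -1.20 did not pass an exact two-sided permutation test within levels of busulfan (p = 0.06, adjusted p = 0.22 over 10 ratio tests, smallest possible p = 0.005). Without AOS 2 and busulfan plus AOS 1 the difference was -0.43, and without AOS 2 alone -0.79. For busulfan it was -0.44 (exact permutation p = 0.47, adjusted p = 0.588), and it ran from -0.86 without AOS 2 to -0.08 without busulfan plus AOS 1. The genes of the cardiomyocyte sum did not move alike. In AOS 2 and busulfan plus AOS 1 Myl2 was at 4294 and 2542 FPKM, against 8826 to 18054 in the other libraries. Myh6 was at 5320 and 5238 FPKM, inside the range of the others (4774 to 7215). In bulk RNA, a different makeup of the tissue and less Rpl3l per cardiomyocyte cannot be told apart.

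Rpl22l1 and Rpl22 were the second pair. In mouse cells Rpl22 is known to repress the mRNA of Rpl22l1. Rpl22l1 (gene 68028, chromosome 3, 28805508 to 28807424) was at 29.0, 34.6 and 27.4 FPKM in controls, 25.4, 45.6 and 31.9 with AOS, 25.9, 35.1 and 34.2 with busulfan, and 49.3, 42.9 and 38.0 with busulfan plus AOS. Each busulfan plus AOS library was above every control and busulfan library, but AOS 2 lay among them. Rpl22 was at 74.2, 69.0 and 63.7 FPKM in controls and at 52.5, 61.5 and 65.4 with busulfan plus AOS, and these groups overlapped.

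The log2 ratio of Rpl22l1 to Rpl22 was -0.73 ± 0.39 with busulfan and -1.08 ± 0.35 without (SD, n = 6 each), a difference of 0.35 (exact permutation p = 0.085, adjusted p = 0.22). With AOS it was -0.72 ± 0.47 and without -1.09 ± 0.19, a difference of 0.37 (exact permutation p = 0.09, adjusted p = 0.22), which was 0.14 without AOS 2 and busulfan plus AOS 1 and 0.23 without AOS 2 alone. Here too busulfan plus AOS 1 stood at the end of the scale, with Rpl22l1 at 48.4% of the summed FPKM, against 27.7% in AOS 1. Neither gene was called. For busulfan plus AOS against control the log2 fold changes were 0.30 ± 0.19 for Rpl22l1 and -0.39 ± 0.14 for Rpl22, with edgeR adjusted p of 0.272 and 0.101.

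Rps27l, a target of p53 in human and mouse cells, and Rps27 were the third pair. Rps27l (gene 67941, chromosome 9, 66944624 to 66949522) was at 119, 96.7 and 88.9 FPKM in controls, 81.6, 71.0 and 95.7 with AOS, 98.7, 112 and 106 with busulfan, and 79.1, 89.3 and 96.1 with busulfan plus AOS. The busulfan libraries lay inside the range of the controls and above all libraries that had AOS. The log2 ratio of Rps27l to Rps27 was -3.01 ± 0.25 with AOS and -2.74 ± 0.18 without (SD, n = 6 each), a difference of -0.27 (exact permutation p = 0.035, adjusted p = 0.22), and -0.15 without AOS 2 and busulfan plus AOS 1 or -0.16 without AOS 2 alone. With busulfan the difference was 0.16 (exact permutation p = 0.235, adjusted p = 0.386), and 0.05 without AOS 2. As a single gene Rps27l had a log2 fold change with busulfan of -0.02 ± 0.18 against control.

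The other pairs showed less. The log2 ratio of Rpl36al to Rpl36a differed by 0.02 with busulfan and by -0.11 with AOS (exact permutation p = 0.9 and 0.27). That of Rpl39l to Rpl39 differed by 0.08 and 0.80 (exact permutation p = 0.77 and 0.11), with Rpl39l listed at 0 in 8 libraries. The genes of these 5 pairs share no 50-base word with each other. Rpl7l1, which resembles Rpl7 but acts in ribosome assembly, kept between 15.4 and 21.3 FPKM.

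**Figure D5:**
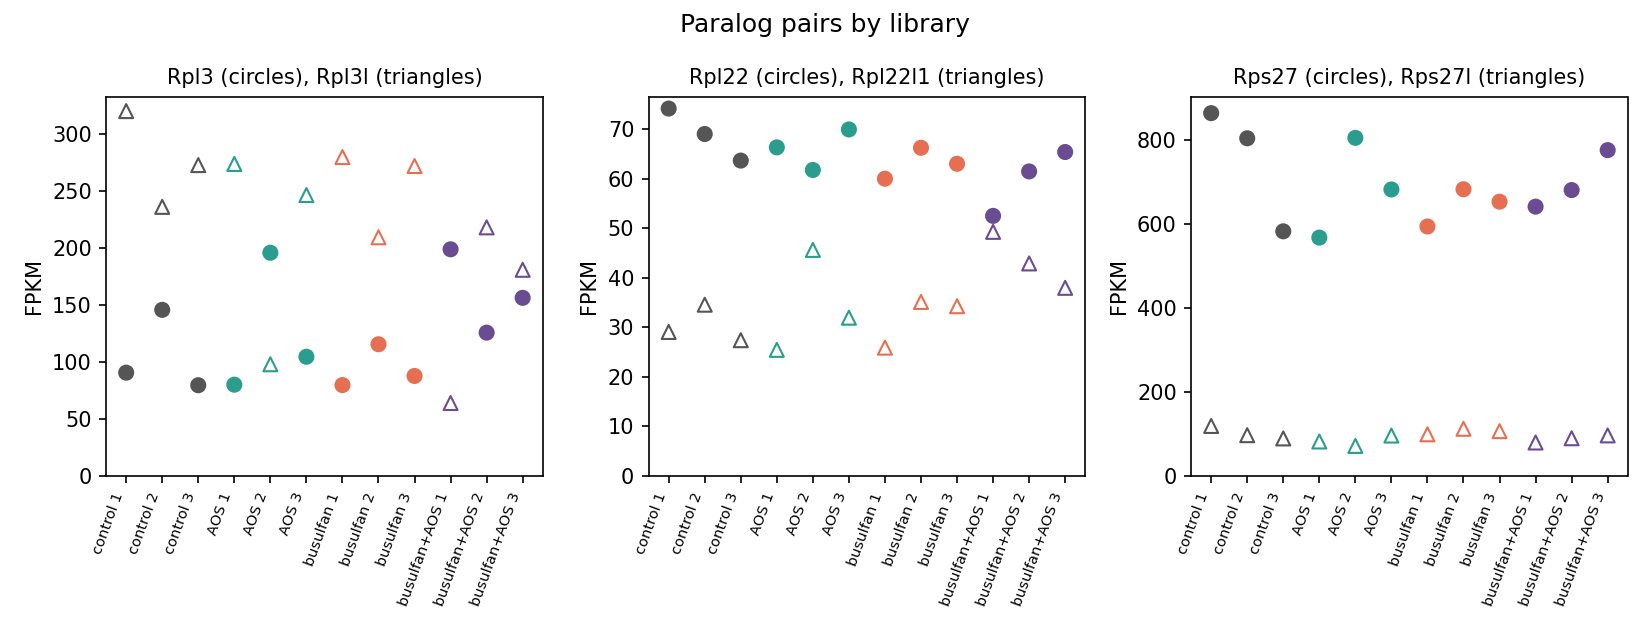
FPKM (vertical axis) in each of the 12 libraries (horizontal axis, coloured by group) is drawn for Rpl3 and Rpl3l, Rpl22 and Rpl22l1, and Rps27 and Rps27l, with circles for the common gene and triangles for its copy. In AOS 2 and busulfan plus AOS 1 the circle of Rpl3 (196 and 199) lies above the triangle of Rpl3l (97.7 and 63.8), the reverse of the other libraries.

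Promoters of ribosomal protein genes are known for pyrimidine-rich starts and shared factor sites. Of the 86 members 66 were found in the RefSeq promoter table of GRCm38.p6, each with 250 bases before and 50 from the annotated start. A C at the first base followed by 4 pyrimidines, the simplest form of a TOP start, was present in 13 of the 66 (19.7%) and in 2.17% of 17492 promoters of protein-coding genes, members included. This strict form depends on the exact annotated base. A pyrimidine run led by a C near the annotated start was present in 26 members (39.4%) against 10.0%. The Ets-type word CCGGAAG on either strand was present in 25 members (37.9%) against 11.9%. For AAGATGG, a YY1-type word that can overlap CCGGAAG by AAG, the count was 9 (13.6%) against 6.37%, and for the GC box GGGCGG it was 39 (59.1%) against 46.3%. TATAAA on the forward strand, in the 50 bases before the start, was present in 1 member (1.52%) against 3.56%. A matched word is a description of sequence, and no binding was measured.

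Windows from 60 bases before to 40 from the annotated start are shown for the abundant Rpl41, Rps24 and Rps27 and for the copies Rpl3l, Rps27l and Rpl22l1 compared above. The start used for Rps27l lies inside its gene (66944624 to 66949522), while those of the others lie at an end of theirs. Capitals mark the pyrimidine run of at least 5 bases that is nearest to the start, and Rpl41 has none there. They lie at chr10:128549129-128549228 (minus strand), chr14:24490618-24490717 (plus), chr3:90213609-90213708 (minus), chr17:24727766-24727865 (plus), chr9:66946026-66946125 (plus) and chr3:28805448-28805547 (plus), in this order.
Rpl41: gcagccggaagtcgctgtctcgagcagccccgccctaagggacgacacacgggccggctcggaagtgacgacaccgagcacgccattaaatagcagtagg
Rps24: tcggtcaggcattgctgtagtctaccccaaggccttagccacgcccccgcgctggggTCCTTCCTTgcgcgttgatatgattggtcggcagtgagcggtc
Rps27: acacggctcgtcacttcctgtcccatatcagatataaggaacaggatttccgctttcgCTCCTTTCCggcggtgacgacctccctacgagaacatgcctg
Rpl3l: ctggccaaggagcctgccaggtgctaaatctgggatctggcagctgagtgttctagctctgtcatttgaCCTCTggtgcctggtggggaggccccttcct
Rps27l: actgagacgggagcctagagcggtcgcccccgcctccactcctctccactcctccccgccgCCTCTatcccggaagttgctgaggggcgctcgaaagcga
Rpl22l1: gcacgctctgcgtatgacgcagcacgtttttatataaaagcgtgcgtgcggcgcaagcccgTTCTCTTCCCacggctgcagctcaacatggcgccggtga

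Of these 6, Rps27 met the strict form at the annotated first base. In Rps24 the run of 9 pyrimidines spans the annotated start, and in Rpl22l1 a run of 10 begins 1 base after it. The run nearest to the start of Rpl3l has 5 bases and begins 9 bases downstream. Rpl41 and Rps27l hold CCGGAAG in these windows. Members without the strict form include some with a run near the start, such as Rps24. Members with and without the strict form at the annotated first base had like values. The 11 tested members with it had a median log2 fold change of -0.27 with busulfan against control, and the other 51 matched members -0.26. With AOS the medians were -0.30 and -0.24, and with busulfan plus AOS -0.34 and -0.30, without a test of the difference.

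Genes that work with the ribosomal proteins were followed as lists, and no gene of them was called in any comparison. Fau, a ribosomal protein made as a fusion with a ubiquitin-like protein, was at 221, 219 and 198 FPKM in controls and at 153, 160.1 and 222 with busulfan plus AOS, where the groups overlapped (log2 fold change -0.42 ± 0.15, edgeR adjusted p = 0.0980). Rack1, a small-subunit scaffold, had a log2 fold change of -0.08 ± 0.11 in that comparison (edgeR adjusted p = 0.629). Among 15 tested TOP mRNAs of other proteins, mostly elongation factors and subunits of the initiation factor eIF3, 13 were lower with busulfan (median -0.14) and 12 with busulfan plus AOS (median -0.23). For 26 other translation factors these counts were 20 (median -0.11) and 25 (median -0.22), and for 43 ribosome biogenesis factors 29 (median -0.07) and 33 (median -0.17). The lists were not refitted without control 1 and control 2.

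Ncl, which encodes nucleolin, had the smallest p of the biogenesis list. It was at 44.1 to 48.6 FPKM in the controls, 44.8 to 45.9 with AOS, 37.4 to 40.7 with busulfan and 37.3 to 42.7 with busulfan plus AOS. All 6 libraries with busulfan lay below all 6 without it, and the log2 fold change of busulfan was -0.27 ± 0.07 (edgeR adjusted p = 0.133). In the list of mTORC1 and TOP regulators, 10 of 19 were lower with busulfan and the median was -0.02. Sesn2, an inhibitor of mTORC1 and a p53 target, was at 0.88 to 1.27 FPKM in controls, 1.19 to 2.54 with AOS, 2.20 to 2.60 with busulfan and 2.73 to 3.03 with busulfan plus AOS. Its log2 fold change with busulfan was 0.81 ± 0.16 over both levels of AOS (edgeR adjusted p = 0.0734). Sesn1 had -0.41 ± 0.11 (adjusted p = 0.142). Mtor itself was listed at 0 in all 3 busulfan libraries and in AOS 2, and at 0.07 to 0.36 FPKM in the others, so no fold is given.

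The mitochondrial ribosomal proteins, encoded by separate nuclear genes, had a lower median than the cytosolic ones in busulfan plus AOS hearts. Of 78 tested, 75 were lower, with a median of -0.61, and 66 had an unadjusted p under 0.05, against 16% of all genes. With busulfan alone 77 were lower (median -0.25) and with AOS 76 (median -0.31), close to the cytosolic members. When AOS was added to busulfan their median was -0.37 and when busulfan was added to AOS -0.29, where those of the cytosolic members were -0.02 and -0.04. The difference between these families was not tested. The 1078 short genes outside the cytosolic family had a median of -0.37 with busulfan plus AOS against control. The mitochondrial list was not refitted without control 1 and control 2. Mrpl34 was at 163, 85.3 and 95.9 FPKM in controls and 47.8, 41.7 and 53.2 with busulfan plus AOS (log2 fold change -1.46 ± 0.28, edgeR adjusted p = 0.0646). The cardiomyocyte marker sums moved with this order, from 54715 to 64675 FPKM in controls to 24271 to 41460 with busulfan plus AOS, and their part in it was not tested.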

How the data were processed

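The authors deposited 1 table of mouse heart RNA with 12 columns of estimated counts and 12 of FPKM. The second set was read as FPKM because count, value and library total imply a nearly constant gene length. The build is mm10 per the submitters' processing notes, and no aligner or counting tool is given in the sources used here. Between 19.7% and 22.8% of the estimated counts in a library are fractional (tolerance 0.005). The authors' group means were not used.

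Rounding the counts moved library totals by no more than 18.1. Genes were filtered with filterByExpr (4559 left out), scaled by TMM and fitted over all 12 libraries with the quasi-likelihood test of edgeR 4.0.16 under R 4.3.3, and p-values were adjusted by Benjamini-Hochberg over all tested genes (threshold 0.05). The script was tested on simulated data. SE is the size of the log2 fold change over the root of its F statistic. Log2 ratios of gene copies used log2(FPKM + 0.1) and exact permutation within levels of the other treatment (400 rearrangements). Alternatives used DESeq2 1.42.0 and limma 3.58.1 on log2 FPKM, other scalings, covariates and left-out libraries. FPKM compares levels per length, and a sum of FPKM over all genes differs between libraries with the length of their transcripts.

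Named members were those with the largest and smallest fold changes and the smallest p in each comparison, the extremes of level and spread, the gene copies, and members with known separate roles. Rps20 in the interaction and the short genes as a set were chosen after their values were seen. Some members named by the rule are not reported here. The members and the lists were chosen with earlier results of these data known. Sequences are from RefSeq (GRCm38.p6) and shared words from GENCODE M21 transcripts, in which 84 members were found. Members on chromosome 18 are given without coordinates.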

Additional observations from a re-analysis of the deposited data

How the results depend on the processing

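The members called stayed at 0 in all 8 comparisons under every setting tried, except in busulfan plus AOS against control, where DESeq2 called 17 and leaving out single libraries gave 0 to 11 (11 without AOS replicate 2). For the median log2 fold change of that comparison, library totals gave -0.11 and limma on log2 FPKM -0.13 with a pseudocount of 0.1 and of 1. With library totals the median of all genes shifted by 0.12 for AOS and 0.19 for busulfan plus AOS against control. Settings chosen after seeing the data moved more. With the short-gene covariate the medians were -0.085 (busulfan), -0.045 (AOS) and -0.0078 (busulfan plus AOS) against control, and -0.026 and 0.018 for the effects of busulfan and AOS over both levels of the other treatment. Without control 1 and control 2 they were -0.024, 0.015 and -0.049 against control and -0.055 for the interaction, with 15639 genes tested. The cause was not tested. Leaving out single libraries, the medians ran from -0.38 to -0.19 for busulfan, -0.37 to -0.17 for AOS and -0.42 to -0.23 for busulfan plus AOS against control. The ratio of Rpl36al to Rpl36a with busulfan turned to -0.049 without AOS 2 and busulfan plus AOS 1 and ranged from -0.047 to 0.080 over single left-out libraries. That of Rpl39l to Rpl39 turned to -0.050 and ranged from -0.24 to 0.26. Residual correlations of libraries with the same replicate number ran from -0.45 to 0.55. Libraries with different numbers were not set beside them, so pairing by number was not tested. With the number as a replicate block, no member was called, and the median was -0.27 for busulfan, -0.27 for AOS and -0.30 for busulfan plus AOS against control. With 3 libraries a group, 1 library can decide a median, and sequence shared with other genes limits the values of many members.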
